A study of Arabidopsis thaliana with 4 samples.

Results

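The 10 genes described here encode enzymes that make the hormone abscisic acid (ABA) or release it from storage in *Arabidopsis thaliana*. They were listed by locus, with earlier results of these data known, and are 10 of the 27655 genes in the deposited table: *NCED2* (AT4G18350), *NCED3* (AT3G14440), *NCED5* (AT1G30100), *NCED9* (AT1G78390), *ABA1* (AT5G67030), *ABA2* (AT1G52340), *ABA3* (AT1G16540), *ABA4* (AT1G67080), *AAO3* (AT2G27150) and *BGLU18* (AT1G52400). Each was measured by mRNA sequencing in leaves of 3-week-old soil-grown Col-0 plants in 4 libraries, with 1 library per group. OX5-4 overexpressed *AtBBD1*, a bifunctional nuclease gene, and was sampled after 6 h of watering with 20% polyethylene glycol (PEG), which draws water away from the roots. The mutant *atbbd1* carries a T-DNA insertion in that gene and was treated in the same way. WT was sampled after the same treatment, and a further WT library was taken at 0 h, before PEG. OX5-4 is a single transgenic line, described by the labels as p35S:AtBBD1 and by the study as driven by a promoter of cassava vein mosaic virus, and leaves of several plants were pooled for each genotype.

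ABA is the hormone that closes stomata and switches on protective genes when water is short. In the plastid, ABA1 (zeaxanthin epoxidase) makes violaxanthin, ABA4 is needed to turn violaxanthin into neoxanthin, and the 9-*cis*-epoxycarotenoid dioxygenases (NCEDs) cut these carotenoids into xanthoxin, the step at which synthesis is usually limited. In the cytosol, ABA2 converts xanthoxin to abscisic aldehyde and AAO3 oxidises the aldehyde to ABA with a molybdenum cofactor that ABA3 completes. BGLU18 is a β-glucosidase of the endoplasmic reticulum that frees ABA from its inactive glucose ester, a faster source than synthesis from carotenoids. In leaves, NCED3, ABA2 and AAO3 are known from vascular parenchyma.

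The upstream sequence is shown for the 5 genes that differed at least 2-fold in at least 1 of the 4 comparisons between libraries given below, as the 300 bases before the annotated 5′ end, read 5′ to 3′ on the gene's own strand. The sequences are from RefSeq, build TAIR10.1, at chr3:4834016-4834315 (minus strand, *NCED3*), chr5:26757403-26757702 (minus strand, *ABA1*), chr1:5659070-5659369 (plus strand, *ABA3*), chr2:11601427-11601726 (plus strand, *AAO3*) and chr1:19514689-19514988 (plus strand, *BGLU18*). Capitals mark a match, on either strand, to 1 of the 5 motifs searched.
NCED3: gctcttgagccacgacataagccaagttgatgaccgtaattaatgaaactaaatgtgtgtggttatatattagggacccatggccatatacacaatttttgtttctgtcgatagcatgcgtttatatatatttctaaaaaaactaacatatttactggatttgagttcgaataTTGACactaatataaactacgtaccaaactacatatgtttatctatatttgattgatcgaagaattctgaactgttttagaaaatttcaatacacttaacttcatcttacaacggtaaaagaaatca
ABA1: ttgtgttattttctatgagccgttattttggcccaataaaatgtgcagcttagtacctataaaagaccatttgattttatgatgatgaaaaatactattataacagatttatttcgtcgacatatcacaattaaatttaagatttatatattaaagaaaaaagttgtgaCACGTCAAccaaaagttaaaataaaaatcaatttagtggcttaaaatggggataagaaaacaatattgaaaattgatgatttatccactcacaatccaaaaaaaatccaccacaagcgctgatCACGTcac
ABA3: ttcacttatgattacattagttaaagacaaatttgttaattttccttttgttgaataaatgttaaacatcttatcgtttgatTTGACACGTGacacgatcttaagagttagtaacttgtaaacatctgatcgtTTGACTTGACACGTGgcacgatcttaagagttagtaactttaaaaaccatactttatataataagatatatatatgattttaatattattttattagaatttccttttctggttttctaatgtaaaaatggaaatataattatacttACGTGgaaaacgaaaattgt
AAO3: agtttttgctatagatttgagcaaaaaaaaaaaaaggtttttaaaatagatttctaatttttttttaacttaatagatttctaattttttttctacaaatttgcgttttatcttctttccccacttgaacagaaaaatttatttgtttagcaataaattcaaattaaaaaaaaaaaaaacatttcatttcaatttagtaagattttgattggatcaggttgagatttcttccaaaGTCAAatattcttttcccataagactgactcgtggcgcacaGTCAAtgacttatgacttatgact
BGLU18: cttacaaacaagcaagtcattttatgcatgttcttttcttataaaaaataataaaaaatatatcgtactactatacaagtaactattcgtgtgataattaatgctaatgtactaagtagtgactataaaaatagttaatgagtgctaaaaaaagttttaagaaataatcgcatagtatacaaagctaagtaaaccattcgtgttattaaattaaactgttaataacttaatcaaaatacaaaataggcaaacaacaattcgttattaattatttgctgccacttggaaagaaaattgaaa

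The motifs were the ABRE core (ACGTG), the G-box (CACGTG, which holds an ABRE core on both strands), the DRE/CRT core (CCGAC), the evening element (AAAATATCT) and the W-box core (TTGAC). The *ABA3* window was the densest, with 5 ABRE cores of which 4 lie in its 2 G-boxes, and 3 W-box cores, 2 of which share a base with a G-box. Its G-boxes end 209 and 153 bases before the 5′ end, and each is closely followed by the same run of 24 bases (cacgatcttaagagttagtaactt), which starts at 207 and again at 151 bases before that end. *ABA1* had 2 ABRE cores, and the W-box core of its window overlapped 1 of them. *NCED3* had 1 W-box core and no ABRE core in this window, *AAO3* had 2 W-box cores, and *BGLU18* held none of the 5 motifs. Of all 10 genes, 3 held an ABRE core (*NCED9*, *ABA1* and *ABA3*), 2 a G-box, 1 a DRE/CRT core (*ABA2*), 7 a W-box core and 0 an evening element. Among the 27444 windows of the same length, the shares with at least 1 match were 25.6% for the ABRE core, 7.09% for the G-box, 13.9% for the DRE/CRT core, 50.4% for the W-box core and 2.79% for the evening element. A match is a run of letters and not a measured binding site.

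Levels are in FPKM, the fragments counted for a gene scaled by its transcript length and by the mapped fragments of the library, so that those of different genes are compared per length. The smallest steps between FPKM values gave an estimated 15334000 to 17694000 mapped fragments per library. With 1 library per group, no p-value was computed, and each ratio carries an exact 95% interval that covers counting error only, not variation between plants. *AtBBD1* was at 631.27 FPKM in OX5-4, 36.63 FPKM in *atbbd1*, 540.94 FPKM in WT after PEG and 95.51 FPKM in WT at 0 h. *atbbd1* was thus below both WT libraries in the targeted gene, though the gene still ranked above 92.3% of all genes there. OX5-4 stood only 1.17-fold above WT after PEG, under the 2-fold threshold. By quantitative RT-PCR the study reported a several-fold excess over WT in this line, so overexpression was little visible in the library compared here. The related gene *AtBBD2* was at 228.58 FPKM in OX5-4, 140.07 FPKM in *atbbd1*, 198.13 FPKM in WT after PEG and 68.57 FPKM in WT at 0 h. The table gives *AtBBD1* a single value, with no separate one for the transgene. In these leaf samples, the mesophyll markers *RBCS1A*, *LHCB2.1* and *LHCB1.3* summed to 31136 FPKM or more in every library, and both seed markers were at 0. The 4 root markers summed to 0.550 FPKM or less. In bulk leaf RNA, fewer cells of a type and less RNA per cell cannot be told apart.

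Genes that reached 1 FPKM in at least 1 library were kept (16374), and a difference of at least 2-fold was called. Of the 10 ABA genes, 7 were kept. *NCED2*, *NCED5* and *NCED9* stayed below this minimum in every library. After PEG, the genes that separated the genotypes most were *NCED3* and *BGLU18*. In *atbbd1* versus WT after PEG, 2 of the 7 genes were called lower, *NCED3* and *BGLU18*, where 5.29% of all genes kept were, and 0 were called higher, where 1.07% of all were. In OX5-4 versus WT after PEG, 0 of the 7 were called higher, where 2.45% of all were, and 0 were called lower, where 1.31% of all were. The largest ratio in this comparison, that of *NCED3*, was 1.97 and lay just under the threshold. In OX5-4 versus *atbbd1*, 3 of the 7 were called higher (*NCED3*, *AAO3* and *BGLU18*), where 7.33% of all were, and 0 were called lower, where 1.28% of all were. *ABA3*, at 1.97-fold, was the next in order, and when each library was scaled to a common FPKM sum it passed the threshold and the count became 4, whereas with a pseudocount of 1 FPKM *AAO3* no longer passed (log2 0.93) and the count was 2. In WT after PEG versus WT at 0 h, 3 were called higher (*NCED3*, *ABA3* and *BGLU18*), where 16.1% of all were, and 1, *ABA1*, was called lower, where 15.9% of all were. With the same pseudocount *ABA3* no longer passed here (log2 0.85), and the count called higher was 2.

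The median log2 ratio over the 7 genes kept was −0.38 in *atbbd1* versus WT after PEG, beside −0.11 over all genes kept. It was 0.29 in OX5-4 versus WT after PEG, beside 0.02 over all, and 0.98 in OX5-4 versus *atbbd1*, beside 0.11. In WT after PEG versus WT at 0 h it was 0.45, beside 0.04 over all. The 3 comparisons with WT after PEG share that library, so a deviation of it would enter each of them.

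**Figure D1:**
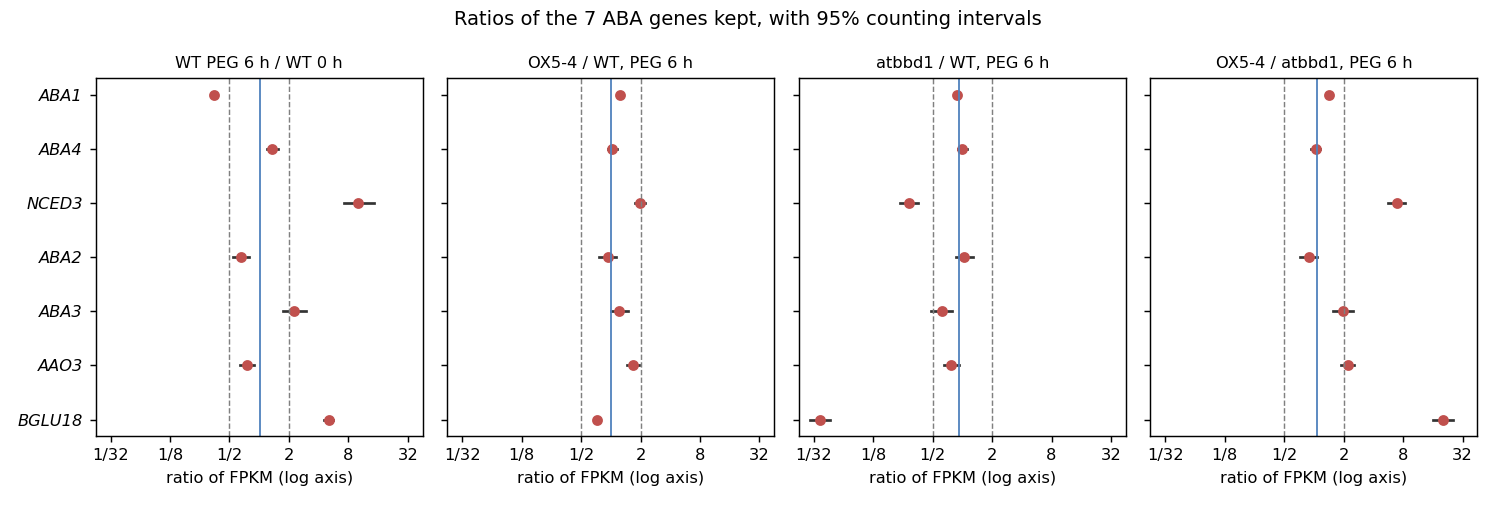
Ratio of FPKM (log axis) of the 7 ABA genes that reached 1 FPKM, in 4 comparisons of single libraries. Points are ratios and lines exact 95% counting intervals, dashed lines mark 2-fold, and the blue line is the median of all genes kept. *BGLU18* lies 27.5-fold below WT after PEG in *atbbd1*, while *ABA2* and *ABA4* lie near 1 in the 3 comparisons between genotypes.

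*ABA1* had the highest level of the 10 genes in every library. It was at 177.89 FPKM in OX5-4, 126.13 FPKM in *atbbd1*, 143.91 FPKM in WT after PEG and 409.24 FPKM in WT at 0 h, which placed it above 98.0% to 99.4% of all genes. All 3 libraries taken after PEG were below WT at 0 h, and WT after PEG was 2.84-fold lower (2.76 to 2.93). Between genotypes the differences were small: OX5-4 was 1.24-fold of WT after PEG (1.19 to 1.28), and *atbbd1* was 1.14-fold lower (1.10 to 1.19). The *atbbd1* difference, −0.19 on the log2 scale, lay close to the median of all genes in that comparison and was −0.09 after median-of-ratios scaling. OX5-4 was 1.41-fold of *atbbd1* (1.36 to 1.46).

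*ABA4*, which acts after *ABA1*, varied least of the 7 genes kept. It was at 33.41 FPKM in OX5-4, 31.95 FPKM in *atbbd1*, 32.03 FPKM in WT after PEG and 23.48 FPKM in WT at 0 h. PEG-treated WT was 1.36-fold of WT at 0 h (1.21 to 1.54), the direction opposite to that of *ABA1*. OX5-4 was 1.04-fold of WT after PEG (0.940 to 1.16) and *atbbd1* 0.998-fold (0.897 to 1.11), so that a genotype difference beyond counting error was not detectable at this depth. OX5-4 stood at 0.06 relative to *atbbd1* on the log2 scale, and at −0.06 after median-of-ratios scaling, which moved every gene of that comparison by −0.12.

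*NCED3*, the dioxygenase best known for the response to drought, had an ordered pattern across all 4 libraries. The gene has 1 exon and lies on chromosome 3 at 4831286 to 4834015 (TAIR10.1, minus strand). It was at 18.47 FPKM in OX5-4, 2.69 FPKM in *atbbd1*, 9.38 FPKM in WT after PEG and 0.93 FPKM in WT at 0 h, from an estimated 892, 125, 403 and 39 fragments. OX5-4 was highest and WT at 0 h lowest, and no counting interval of a ratio between any pair of libraries reached 1. OX5-4 was 1.97-fold of WT after PEG (1.75 to 2.22), and 2.5% of genes had a higher ratio. *atbbd1* was 3.49-fold lower than WT after PEG (2.84 to 4.29), and 1.9% of genes had a lower ratio. OX5-4 was 6.87-fold of *atbbd1* (5.68 to 8.33).

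Against WT at 0 h, each library taken after PEG had a higher *NCED3* level, and 3 of the 7 ABA genes were called higher in OX5-4 (*NCED3*, *ABA3* and *BGLU18*), where 17.4% of all genes kept were, against 1 in *atbbd1* (*NCED3*), where 13.2% of all were. Called lower than WT at 0 h were *ABA1* in OX5-4, where 16.3% of all were, and *ABA1* and *BGLU18* in *atbbd1*, where 18.9% of all were. OX5-4 was 19.9-fold of it (14.4 to 28.1), *atbbd1* 2.89-fold (2.0 to 4.26) and WT after PEG 10.1-fold (7.24 to 14.4). *NCED3* in *atbbd1* was thus called lower than WT after PEG and called higher than WT at 0 h. Its rank among all genes in the table followed the same order, above 84.3% of genes in OX5-4, 54.9% in *atbbd1*, 73.2% in WT after PEG and 44.6% in WT at 0 h.

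The other NCED genes were near or below detection in these leaves. *NCED5*, which also takes part in drought responses, was at 0.27 FPKM in OX5-4, 0.29 FPKM in *atbbd1*, 0.19 FPKM in WT after PEG and 0.10 FPKM in WT at 0 h, from 10, 10, 6 and 3 estimated fragments. Its ratio was 1.42 (0.488 to 4.96) in OX5-4 and 1.53 (0.508 to 5.16) in *atbbd1* relative to WT after PEG, and 1.90 (0.416 to 12.0) in WT after PEG relative to WT at 0 h, intervals too wide to show a difference. *NCED9*, known from developing seeds, was at 0.03 FPKM (1 fragment) in OX5-4 and in WT after PEG and at 0 in *atbbd1* and WT at 0 h. *NCED2* was listed at 0 in all 4 libraries, which allowed at most 0.071 FPKM in OX5-4, 0.074 FPKM in *atbbd1*, 0.080 FPKM in WT after PEG and 0.082 FPKM in WT at 0 h, taking 3 fragments as the limit. With *NCED6*, known from endosperm and also at 0 throughout, the 5 NCED genes summed to 18.8 FPKM in OX5-4, 2.98 FPKM in *atbbd1*, 9.60 FPKM in WT after PEG and 1.03 FPKM in WT at 0 h. *NCED3* made up 98.4%, 90.3%, 97.7% and 90.3% of these sums. The NCED genes have a single exon each, and the longest run of bases *NCED3* shares with another of them is 42 (with *NCED9*), so reads of that length or shorter could not be assigned to 1 gene there.

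Of the cytosolic steps, *ABA2* did not separate the genotypes. This short-chain dehydrogenase gene was at 9.69 FPKM in OX5-4, 10.94 FPKM in *atbbd1*, 10.42 FPKM in WT after PEG and 16.03 FPKM in WT at 0 h. OX5-4 was 0.930-fold of WT after PEG (0.760 to 1.14) and *atbbd1* 1.05-fold (0.862 to 1.28), both intervals including 1. WT after PEG was 1.54-fold lower than WT at 0 h (1.28 to 1.85). *ABA2* overlaps *AT1G52330* on the opposite strand, which was at most 0.27 FPKM. It also overlaps *AT1G07803* on that strand, which has no FPKM value here.

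*AAO3*, the last enzyme of the pathway, was at 7.14 FPKM in OX5-4, 3.26 FPKM in *atbbd1*, 4.23 FPKM in WT after PEG and 5.60 FPKM in WT at 0 h. OX5-4 was above and *atbbd1* below both WT libraries. OX5-4 was 1.69-fold of WT after PEG (1.46 to 1.95), a ratio exceeded by 3.9% of genes, and *atbbd1* was at 0.771-fold of WT after PEG (0.647 to 0.918), with a lower ratio in 21.8% of genes. OX5-4 was 2.19-fold of *atbbd1* (1.87 to 2.56), while WT after PEG was 1.32-fold lower than WT at 0 h (1.13 to 1.55). The overlapping gene on the opposite strand, *AT2G27160*, was at most 0.07 FPKM.

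*ABA3*, the molybdenum cofactor sulfurase that AAO3 depends on, had the order of *NCED3* in a narrower range. It was at 4.82 FPKM in OX5-4, 2.45 FPKM in *atbbd1*, 3.95 FPKM in WT after PEG and 1.75 FPKM in WT at 0 h. PEG-treated WT was 2.26-fold of WT at 0 h (1.73 to 3.01). OX5-4 was 1.22-fold of WT after PEG, with an interval that included 1 (0.997 to 1.48), and *atbbd1* was 1.61-fold lower (1.28 to 2.06), with a lower ratio in 9.3% of genes. OX5-4 was 1.97-fold of *atbbd1* (1.57 to 2.48).

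*BGLU18* had the widest difference between genotypes of the 7 genes kept and did not follow the order of *NCED3*. The gene has 13 exons and 3 annotated transcripts and lies on chromosome 1 at 19514989 to 19518411 (TAIR10.1, plus strand). It was at 48.79 FPKM in OX5-4, 2.42 FPKM in *atbbd1*, 66.59 FPKM in WT after PEG and 13.22 FPKM in WT at 0 h, from 1698, 81, 2060 and 399 fragments. *atbbd1* was 27.5-fold lower than WT after PEG (22.0 to 34.7), and of the 16289 genes with a value above 0 in both libraries 31 had a lower ratio. *atbbd1* was also 5.46-fold lower than WT at 0 h (4.29 to 7.02), whereas its *NCED3* level was higher than at 0 h. OX5-4 was 1.36-fold lower than WT after PEG (1.28 to 1.46), a ratio below which 6.9% of genes lay, so that both lines were below WT after PEG. The level in OX5-4 was 3.69-fold of WT at 0 h (3.31 to 4.12), and in WT after PEG it was 5.04-fold (4.52 to 5.62). OX5-4 was 20.2-fold of *atbbd1* (16.1 to 25.5).

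**Figure D2:**
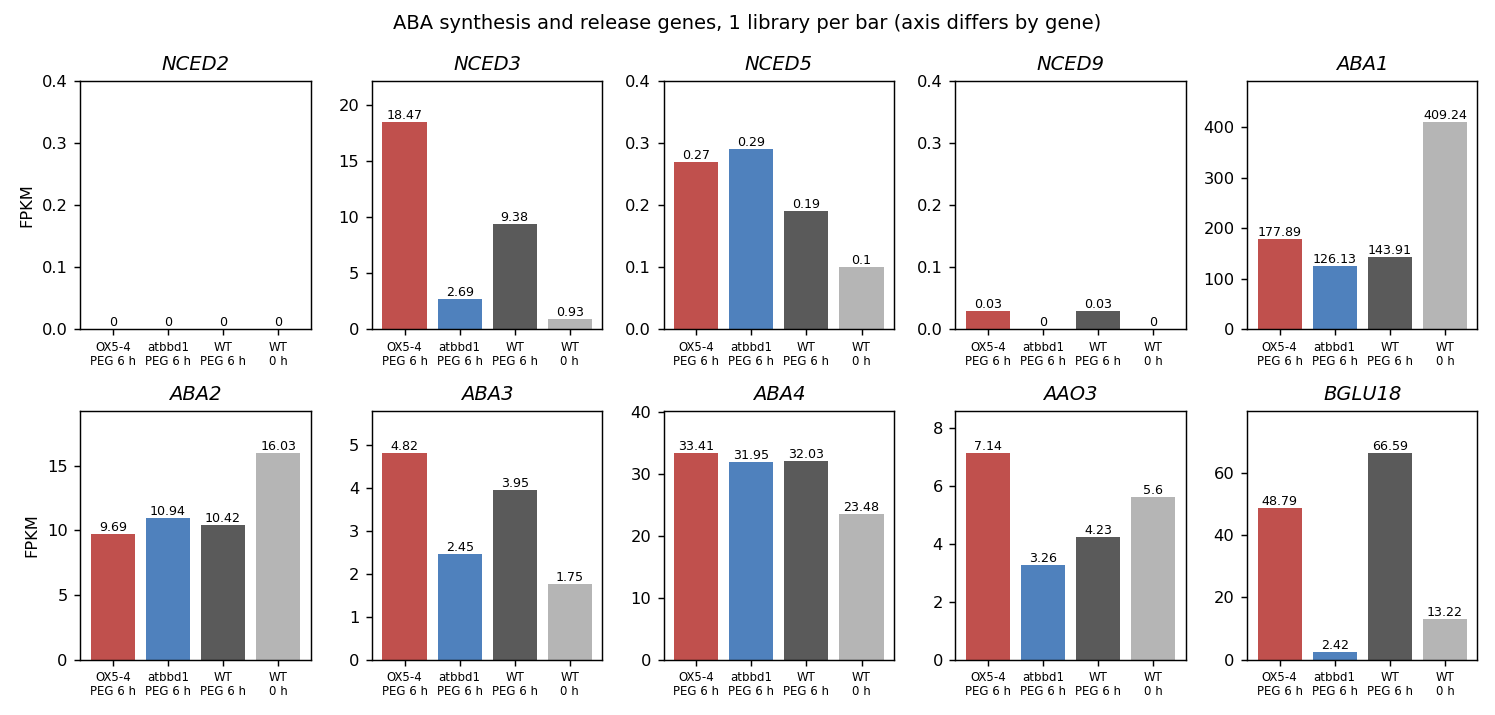
FPKM of the 10 ABA genes in OX5-4, *atbbd1* and WT after 6 h of PEG and in WT at 0 h, with 1 library per bar, no error bars, and an axis of its own for each gene. *NCED3* ran from 18.47 FPKM in OX5-4 to 0.93 FPKM in WT at 0 h, *BGLU18* was at 2.42 FPKM in *atbbd1*, and *ABA1* was highest in WT at 0 h (409.24 FPKM).

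*BGLU18* is the main glucosidase of the endoplasmic reticulum (ER) bodies that form in rosette leaves on wounding or jasmonate, and *TSA1* encodes a protein of the same bodies. The genes are neighbours on chromosome 1, on the same strand and 2191 bases apart. *TSA1* was at 7.79 FPKM in OX5-4, 0.81 FPKM in *atbbd1*, 7.73 FPKM in WT after PEG and 3.00 FPKM in WT at 0 h. In *atbbd1* it was 9.54-fold below WT after PEG (6.78 to 14.1), and in OX5-4 it was 1.01-fold of WT (0.864 to 1.18). The ratio of *BGLU18* to *TSA1*, per length, was 6.26 in OX5-4, 2.99 in *atbbd1*, 8.61 in WT after PEG and 4.41 in WT at 0 h, so that *BGLU18* was the more abundant in all 4. Of the 9 ER body and related glucosidase genes listed beside *BGLU18*, only *TSA1* and *BGLU33* were kept. *BGLU33*, a gene also linked to release of ABA from its glucose ester, was at 0.89 FPKM in OX5-4, 1.81 FPKM in *atbbd1*, 1.03 FPKM in WT after PEG and 3.15 FPKM in WT at 0 h. It was called lower in OX5-4 than in *atbbd1* (2.03-fold, 1.31 to 3.17), where 1.28% of all genes kept were. *BGLU33* was also called lower in WT after PEG than in WT at 0 h (3.06-fold, 2.05 to 4.64), where 15.9% of all were. *BGLU19* to *BGLU22* were at 0 in all libraries, *PYK10*, the root ER body glucosidase, was at most 0.28 FPKM, and *NAI1* and *NAI2*, needed for ER bodies in seedlings, were at most 0.67 FPKM.

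Set per length against each other, the genes stood in different proportions in the 4 libraries. *ABA1* exceeded *NCED3* 9.63-fold in OX5-4, 46.9-fold in *atbbd1*, 15.3-fold in WT after PEG and 440-fold in WT at 0 h. The 9 synthesis genes summed to 252 FPKM in OX5-4, 178 FPKM in *atbbd1*, 204 FPKM in WT after PEG and 457 FPKM in WT at 0 h, and *ABA1* made up 70.7%, 71.0%, 70.5% and 89.5% of these sums. *BGLU18* exceeded *NCED3* 2.64-fold in OX5-4, 7.10-fold in WT after PEG and 14.2-fold in WT at 0 h, but in *atbbd1* it was at 0.900 of the *NCED3* level. These are proportions of transcripts, and neither protein nor ABA was measured in these libraries.

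**Figure D3:**
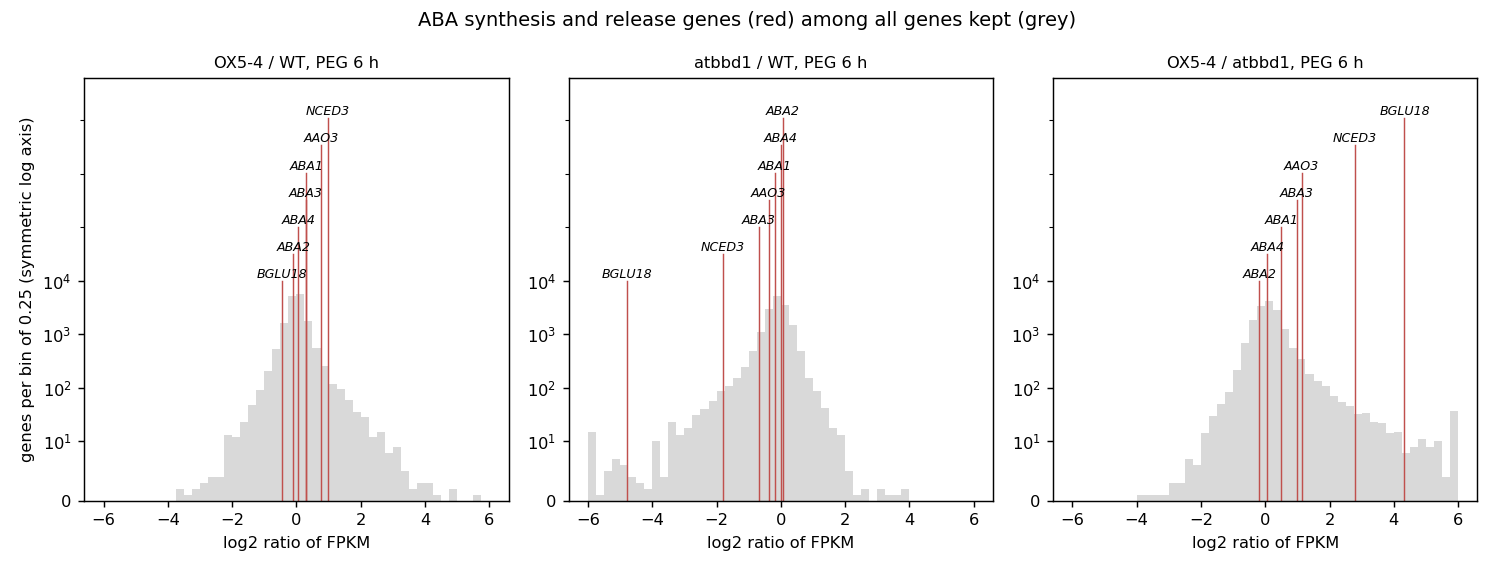
Distribution of log2 ratios of FPKM over the genes kept with a value above 0 in both libraries (grey, genes per bin of 0.25 on a symmetric log axis), with the 7 ABA genes as red lines whose heights only separate the names. Genes beyond the axis are counted in the outermost bins. *BGLU18* (−4.78) and *NCED3* (−1.80) lie in the lower tail of *atbbd1* versus WT, and *NCED3* (2.78) and *BGLU18* (4.33) in the upper tail of OX5-4 versus *atbbd1*.

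The genotypes were compared at the same hour of treatment, but WT at 0 h was sampled at another time of day, and no untreated library of 6 h is among the 4. The morning clock genes *CCA1*, *LHY* and *PRR9* were all called lower in WT once PEG had acted for 6 h, where 15.9% of all genes kept were. The median of their log2 ratios was −5.46. All 5 evening clock genes were called higher, where 16.1% of all were. The median was 4.77 over *TOC1*, *GI*, *ELF4* and *LUX*, the 4 with a value above 0 at both times. *PRR5* was at 76.50 FPKM in WT after PEG and at 0 in WT at 0 h, at least 656-fold higher when 3 fragments stand for the 0, and with it at this bound the median is the 4.90 of *TOC1*. PEG and time of day therefore cannot be told apart in the ratios of *NCED3*, *ABA1*, *ABA3* and *BGLU18* to WT at 0 h. After PEG, 0 of these 8 clock genes were called between OX5-4 and WT, where 2.45% of all were called higher and 1.31% lower. Between *atbbd1* and WT 1 was called lower, *PRR9*, at 2.34 FPKM in *atbbd1* and 8.38 FPKM in WT, where 5.29% of all were. In OX5-4 versus *atbbd1*, 2 of the 3 morning genes were called higher, where 7.33% of all were, and 0 of the 5 evening genes were called. The 2 were *CCA1* (OX5-4 at 6.33 FPKM against *atbbd1* at 1.95 FPKM, 3.25-fold, 2.45 to 4.41) and *PRR9* (3.54-fold, 2.73 to 4.65). The part of the clock genes in the results was not tested. Markers of vascular tissue, where several ABA enzymes reside, also differed between genotypes. The 6 markers summed to 123 FPKM in OX5-4, 194 FPKM in *atbbd1*, 106 FPKM in WT after PEG and 258 FPKM in WT at 0 h. All 6 were above WT after PEG in *atbbd1*, where *NCED3* and *AAO3* were below it and *ABA2* was at 1.05-fold of it (0.862 to 1.28). Of these markers 2 were called higher, *SUC2* (2.05-fold) and *PP2-A1* (2.13-fold), where 1.07% of all genes kept were. The part of these markers in the results was not tested. The 5 guard cell markers summed to 7.91 FPKM in OX5-4, 10.2 FPKM in *atbbd1*, 8.77 FPKM in WT after PEG and 17.8 FPKM in WT at 0 h, and none of the 3 kept was called between genotypes.

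The genes around the pathway were described by lists of known function. Upstream, all 9 genes of carotenoid synthesis were kept. None was called in OX5-4 versus WT after PEG (median log2 ratio 0.01), where 2.45% of all genes kept were called higher and 1.31% lower. In *atbbd1* versus WT after PEG (median 0.10), 1 was called lower, where 5.29% of all were. This was *BCH2*, a β-carotene hydroxylase, at 3.65 FPKM in OX5-4, 0.93 FPKM in *atbbd1* and 2.91 FPKM in WT after PEG. Against WT at 0 h, 5 of the 9 were called lower in WT after PEG, as *ABA1* was, where 15.9% of all were. Among them were *BCH2* (21.7-fold, 16.0 to 30.2) and *BCH1* (8.88-fold, 7.58 to 10.4), along with *LCYB*, *PSY* and *ZDS*. *VDE*, the de-epoxidase that reverses the reaction of ABA1 in strong light, was called higher, where 16.1% of all were. Its level was 125.17 FPKM in WT after PEG and 22.14 FPKM in WT at 0 h (5.65-fold, 5.18 to 6.17).

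Among other enzymes that cut carotenoids, 2 of 5 were kept. *CCD4*, which degrades carotenoids in plastids, was at 192.33 FPKM in OX5-4, 90.09 FPKM in *atbbd1*, 190.26 FPKM in WT after PEG and 280.68 FPKM in WT at 0 h. In *atbbd1* it was called below WT after PEG (2.11-fold, 2.03 to 2.20), where 5.29% of all genes kept were. *CCD1*, its cytosolic relative, was at 257.77 FPKM in OX5-4, 219.65 FPKM in *atbbd1* and 227.94 FPKM in WT after PEG and was not called in any comparison. Of the other aldehyde oxidase genes, *AAO2* alone was kept, at 2.24 FPKM in OX5-4, 1.95 FPKM in *atbbd1* and 2.44 FPKM in WT after PEG, without the OX5-4 excess of *AAO3*. The 6 genes listed for synthesis of the molybdenum cofactor had 0 calls between genotypes, where 1.07% to 7.33% of all genes kept were called per comparison and direction. Their log2 ratios were −0.82 to 0.02 in *atbbd1* versus WT after PEG and −0.53 to 0.19 in OX5-4 versus WT after PEG. *CNX5* was lowest in both, at 5.69 FPKM in OX5-4, 4.65 FPKM in *atbbd1* and 8.22 FPKM in WT after PEG.

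Downstream, 4 of the 6 genes for ABA breakdown and conjugation were kept, and those called between genotypes after PEG had the direction of *NCED3*. *CYP707A3*, an ABA 8′-hydroxylase, was at 2.19 FPKM in OX5-4, 0.49 FPKM in *atbbd1*, 0.87 FPKM in WT after PEG and 0.51 FPKM in WT at 0 h, and was called in OX5-4 above WT after PEG (2.52-fold, 1.59 to 4.04). It reached 1 FPKM in OX5-4 only, so it was kept through the library in which it is high, and its calls are not independent of that filter. *CYP707A2*, another of these hydroxylases, was at 3.44 FPKM in OX5-4, 0.91 FPKM in *atbbd1* and 1.99 FPKM in WT after PEG, called lower in *atbbd1* (2.19-fold, 1.31 to 3.81). *UGT71B6*, which attaches glucose to ABA, was at 1.82 FPKM in OX5-4, 0.55 FPKM in *atbbd1* and 1.65 FPKM in WT after PEG, also called lower in *atbbd1* (3.00-fold, 1.64 to 5.87). All 3 were called higher in OX5-4 than in *atbbd1*, where 7.33% of all genes kept were. Relative to WT after PEG, 2.45% of all were called upward in OX5-4 and 5.29% downward in *atbbd1*. The *atbbd1* levels rested on few estimated fragments, 16 for *CYP707A3*, 23 for *CYP707A2* and 15 for *UGT71B6*. *UGT71C5*, which makes the ABA glucose ester that BGLU18 splits, was at 20.47 FPKM in OX5-4, 19.58 FPKM in *atbbd1*, 23.99 FPKM in WT after PEG and 7.59 FPKM in WT at 0 h. It was called only in the comparisons of a library after PEG with WT at 0 h, in contrast to *BGLU18*. The median log2 ratio of the 4 was 0.47 in OX5-4 and −0.98 in *atbbd1* relative to WT after PEG, beside 0.02 and −0.11 over all genes. These medians include *CYP707A3* and leave out *CYP707A1* and *CYP707A4*, which were not kept. *CYP707A1* was at 0.99 FPKM in OX5-4, 0.42 FPKM in *atbbd1* and 0.60 FPKM in WT after PEG. *CYP707A4* was at 0.48 FPKM, 0.13 FPKM and 0.33 FPKM in the same libraries.

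Of 3 transcription factor genes known to act on *NCED3* or *AAO3*, each was called higher in OX5-4 than in *atbbd1*, where 7.33% of all genes kept were. *NAP*, a NAC factor that activates *AAO3* in ageing leaves, was at 24.33 FPKM in OX5-4, 2.21 FPKM in *atbbd1*, 9.55 FPKM in WT after PEG and 81.89 FPKM in WT at 0 h. After PEG its order was that of *AAO3*, with OX5-4 at 2.55-fold of WT (2.15 to 3.03) and *atbbd1* 4.32-fold below WT (3.12 to 6.08), and both genes were higher in WT at 0 h than in WT after PEG. Over all 4 libraries the orders differed. *NAP* was highest in WT at 0 h, whereas *AAO3* was highest in OX5-4 (7.14 FPKM, against 5.60 FPKM in WT at 0 h). *ATAF1*, a NAC factor that binds the *NCED3* promoter, was at 17.85 FPKM in OX5-4, 7.87 FPKM in *atbbd1*, 13.84 FPKM in WT after PEG and 15.39 FPKM in WT at 0 h. *WRKY57*, also linked to *NCED3*, was at 2.29 FPKM in OX5-4, 0.94 FPKM in *atbbd1*, 1.17 FPKM in WT after PEG and 5.39 FPKM in WT at 0 h. Unlike *NCED3*, none of the 3 was above its 0 h level in WT after PEG.

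The genes with profiles most like those of *NCED3* and *BGLU18* were taken from all genes kept by the distance between log2(FPKM + 1) values, centred for each gene over the 4 libraries. For *NCED3* the nearest was *AT4G28140*, an AP2/ERF factor of the DREB subfamily, at 9.98 FPKM in OX5-4, 1.15 FPKM in *atbbd1*, 6.01 FPKM in WT after PEG and 0.05 FPKM in WT at 0 h (distance 0.24). Next came *SCRL22* (0.38), *AT3G57680* (0.41), the zinc finger gene *OZF1* (0.43) and *LEA14* (0.44), a late embryogenesis abundant gene at 355.96 FPKM in OX5-4, 84.39 FPKM in *atbbd1*, 189.11 FPKM in WT after PEG and 28.16 FPKM in WT at 0 h. All 5 had the order of *NCED3*, highest in OX5-4, then WT after PEG, then *atbbd1*, then WT at 0 h. For *BGLU18* the nearest profile was that of *AtBBD1* (distance 0.72). That gene is disrupted in *atbbd1* and carried as a transgene in OX5-4, so its levels there were set in part by the genotypes. *AtBBD1* was higher in OX5-4 (631.27 FPKM) than in WT after PEG (540.94 FPKM), whereas *BGLU18* was lower (48.79 FPKM and 66.59 FPKM). *AtBBD1* was followed by the chitinase gene *CHI* (0.86), at 20.89 FPKM in OX5-4, 0.36 FPKM in *atbbd1*, 25.45 FPKM in WT after PEG and 1.95 FPKM in WT at 0 h, and by *AT1G52000* (1.10). *MYC2* (1.13), the master factor of jasmonate signalling, was at 8.04 FPKM in OX5-4, 0 in *atbbd1*, 7.11 FPKM in WT after PEG and 3.51 FPKM in WT at 0 h, and *SAG21* (1.18) was the fifth. The distances for *BGLU18* all exceeded those for *NCED3*. A likeness over 4 libraries is a description of these libraries.

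**Figure D4:**
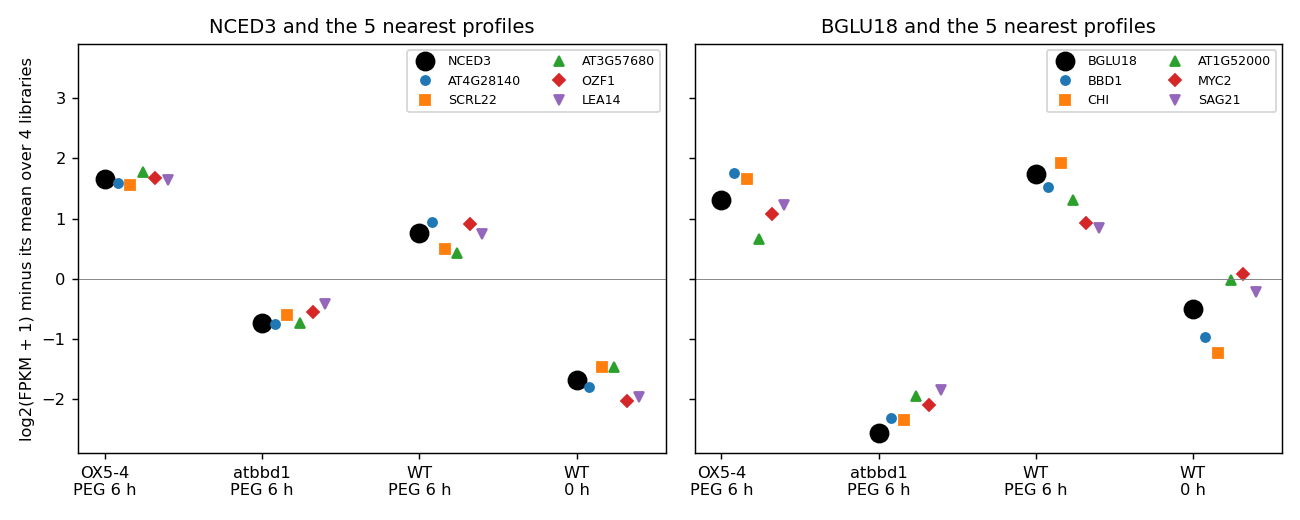
Profiles of *NCED3* (left) and *BGLU18* (right), large black points, with the 5 nearest genes each, as log2(FPKM + 1) minus the gene's mean over the 4 libraries, 1 library per column and points offset for legibility. The neighbours of *NCED3* lie within 0.44 of it in distance, and those of *BGLU18* at 0.72 to 1.18.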

How the data were processed

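The authors sequenced 1 mRNA library per group and deposited FPKM for 27655 genes, already normalised to mapped fragments and transcript length. The study describes mapping to TAIR10 with HISAT2, the Cufflinks pipeline and a stranded kit, whereas TopHat2 and Cufflinks stand in the submitters' notes and a standard mRNA kit in their protocol. How strand entered the counts was not stated there. Samples were grouped by their labels.

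Mapped fragments were estimated as the total at which FPKM × exon length gave whole fragments: for single-transcript genes, 99.1% to 99.3% of values of up to 40 fragments were within 0.15 of a whole number, against 23.2% to 24.3% at other totals. For genes with several annotated transcripts the shortest was used, which gives the fewest fragments and the widest interval. Ratios of FPKM, with no pseudocount, carry exact (Clopper-Pearson) 95% intervals for counting error. A gene at 0 in 1 library needed 1 FPKM in the other to be called, and 3 fragments was the limit for a value of 0. The RefSeq annotation of TAIR10.1 held 27445 of the loci and supplied lengths, names and upstream sequence. The scripts were tested on simulated data and used Python 3.11.15, pandas 2.3.3, numpy 2.4.6, scipy 1.17.1 and matplotlib 3.10.9.

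The genes and the lists beside them were chosen with earlier results of these data known, and the study itself drew several of the ABA genes from these libraries, so their directions here are not independent evidence. The study also measured *ABA1*, *NCED3* and *CYP707A3* by quantitative RT-PCR in replicated experiments, with another overexpression line and a double mutant. By that measure it reported *ABA1* and *NCED3* as higher in overexpression plants and greatly decreased in the mutants, relative to WT. In these libraries *ABA1* in *atbbd1* was only 1.14-fold lower than in WT after PEG. All 10 genes are named. From each list the genes past 2-fold between genotypes after PEG are named (where more than 4, the 2 highest and 2 lowest), while the comparisons of the lists with WT at 0 h are given mainly as counts, with the 5 nearest profiles of *NCED3* and *BGLU18*. Other list members, among them *CCD1*, *CNX5*, *AAO2*, *PYK10*, *NAI1*, *NAI2* and *BGLU19* to *BGLU22*, were added with their values known. Of the lists, only *AG*, at most 2.11 FPKM, was kept among 3 flower markers. Alternatives were no filter, a minimum of 5 FPKM, pseudocounts of 1 and 0.1, a 4-fold threshold, median-of-ratios scaling, a common FPKM sum, and WT at 0 h in place of WT after PEG.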

Additional observations from a re-analysis of the deposited data

How the results depend on the processing

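With 1 library per group, no library could be left out and no paired analysis was possible because no group had a replicate. Several counts of ABA genes called changed with the setting. The count called higher in OX5-4 versus *atbbd1*, 3, was 2 with a pseudocount of 1 (*AAO3* at log2 0.93) and with a 4-fold threshold, and 4 with a common FPKM sum. The count called higher in WT after PEG versus WT at 0 h, 3, was 2 with that pseudocount (*ABA3* at log2 0.85), with a 4-fold threshold, and with a minimum of 5 FPKM, which *ABA3* did not reach. In WT after PEG versus WT at 0 h, the median log2 ratio, 0.45 over the 7 genes kept, was 0.69 with no filter and 0.02 with a minimum of 5 FPKM. With a 4-fold threshold, the count called lower there was 0 in place of 1, and the count called lower in *atbbd1* versus WT after PEG was 1 in place of 2. With WT at 0 h in place of WT after PEG, the log2 ratio of *NCED3* in *atbbd1* was 1.53 in place of −1.80. Limiting calls to genes whose counting interval lay beyond 1, a choice made after seeing the data, changed no count. Of the log2 ratios of single genes, a pseudocount of 1 moved 5 of 28 beyond their counting interval, median-of-ratios scaling (factors 1.04 in OX5-4, 0.953 in *atbbd1*, 1.02 in WT after PEG and 0.990 in WT at 0 h) 3, and a common sum 1. Variation between plants cannot be estimated from these libraries, and at the depth reached no genotype difference of *NCED5*, *NCED9* or *NCED2* could be resolved.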
